A study of Homo sapiens with 9 samples.

Results

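The 10 genes described are part of the bone morphogenetic protein (BMP) and transforming growth factor beta (TGF-beta) pathways and were measured in HT-29 cells, an established human colon adenocarcinoma line. They were taken by name: the ligand genes BMP2, BMP4, BMP7, INHBA, TGFB1 and TGFB2, the antagonist gene GREM1, the receptor gene TGFBR2 and the target genes ID1 and ID3. All 10 stood on a single entry in each library, out of 23284 gene symbols, and all 10 passed the filter on low values in every comparison. That filter, a largest value of at least 10 FPKM, lies below 1 fragment of BMP7, GREM1, INHBA or ID3. Passing it thus says little about their level. RNA-Seq was performed on 9 cultures, with 3 biological replicates each of a vehicle control (DMSO, 0 µM), 5 µM and 10 µM 5-aza-deoxycytidine (5-Aza). The drug is a cytidine analog that is incorporated during replication and traps DNA methyltransferases there, and the cultures were treated for 5 days. All 9 cultures are of 1 cell line, so the replicates measure the spread between dishes.

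BMPs and TGF-betas are secreted dimers that bring together type I and type II receptor kinases on the cell surface, which then phosphorylate SMAD proteins that enter the nucleus. BMP receptors act mainly on SMAD1, SMAD5 and SMAD9, whereas TGF-beta and activin receptors act on SMAD2 and SMAD3, and both branches share SMAD4. In the colon, BMP signaling is strongest toward the top of the crypt, where it favors differentiation, and antagonists such as gremlin 1 are made by stromal cells around the crypt base. HT-29 cells are known to carry a mutation in SMAD4, and a subset of colon cancers loses the TGF-beta type II receptor.

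The promoters shown first are those of members chosen as examples of different levels and directions. They are the GREM1 promoter, the only member called up at 5 µM, the INHBA promoter, of a gene also at or near 0 in the control, the BMP4 and ID1 promoters, both of genes that fell, and the ID3 promoter, a relative of ID1 at a far lower level. DNA methyltransferases act on CG dinucleotides, which are in capitals. Each window runs from 250 bases before to 50 bases after an annotated start. The sequences are from RefSeq (GRCh38.p14) and each matched GRCh37, the build of the authors' alignment (hg19), exactly once, so the positions are given on GRCh37. Where the table lists several windows for a gene the most upstream is shown. INHBA and ID3 were not called in any comparison. TGFBR2, which was called down at 5 µM, is not printed, and its CG counts are given below. For BMP4 and INHBA the GENCODE gene annotation, from which the gene positions below are taken, begins further upstream than these windows.
GREM1 (chr15:33009955-33010254, plus strand): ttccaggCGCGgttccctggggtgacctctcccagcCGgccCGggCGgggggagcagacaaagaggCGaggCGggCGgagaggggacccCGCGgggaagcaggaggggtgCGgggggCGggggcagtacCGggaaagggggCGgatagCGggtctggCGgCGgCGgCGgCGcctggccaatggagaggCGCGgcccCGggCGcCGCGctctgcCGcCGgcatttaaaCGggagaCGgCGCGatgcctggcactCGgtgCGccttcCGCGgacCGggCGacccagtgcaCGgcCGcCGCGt
INHBA (chr7:41742639-41742938, minus strand): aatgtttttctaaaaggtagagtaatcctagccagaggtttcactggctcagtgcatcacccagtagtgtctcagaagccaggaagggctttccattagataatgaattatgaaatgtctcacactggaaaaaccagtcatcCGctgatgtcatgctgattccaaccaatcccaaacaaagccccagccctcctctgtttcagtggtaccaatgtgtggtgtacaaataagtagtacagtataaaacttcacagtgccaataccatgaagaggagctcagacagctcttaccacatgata
BMP4 (chr14:54421719-54422018, minus strand): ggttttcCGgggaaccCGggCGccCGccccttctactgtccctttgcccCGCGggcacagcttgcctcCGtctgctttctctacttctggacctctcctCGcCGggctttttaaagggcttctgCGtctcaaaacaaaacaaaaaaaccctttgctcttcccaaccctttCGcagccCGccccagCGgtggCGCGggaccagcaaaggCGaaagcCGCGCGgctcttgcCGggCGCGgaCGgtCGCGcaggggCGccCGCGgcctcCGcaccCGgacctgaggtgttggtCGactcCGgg
ID1 (chr20:30192842-30193141, plus strand): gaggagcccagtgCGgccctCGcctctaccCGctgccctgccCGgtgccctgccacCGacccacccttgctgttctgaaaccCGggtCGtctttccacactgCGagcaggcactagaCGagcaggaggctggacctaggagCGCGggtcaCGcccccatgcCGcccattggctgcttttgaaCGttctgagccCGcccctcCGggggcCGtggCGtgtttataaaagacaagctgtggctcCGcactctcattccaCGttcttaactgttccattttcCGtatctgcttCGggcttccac
ID3 (chr1:23885943-23886242, minus strand): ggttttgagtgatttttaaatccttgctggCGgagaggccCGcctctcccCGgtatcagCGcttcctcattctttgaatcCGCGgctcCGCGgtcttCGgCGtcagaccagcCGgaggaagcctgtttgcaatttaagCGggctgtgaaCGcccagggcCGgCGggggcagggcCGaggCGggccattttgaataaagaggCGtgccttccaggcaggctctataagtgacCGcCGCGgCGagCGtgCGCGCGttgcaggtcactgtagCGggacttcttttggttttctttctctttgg

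The GREM1 window held 42 CG dinucleotides, more than 94.2% of the 35116 promoter windows of the same length in the table held, and the INHBA window held 1. The counts were 32 for BMP4, 22 for ID1 and 27 for ID3, against a median of 14 and quartiles of 4 and 28 over all windows. Of the members, 8 were in the promoter table, and TGFB1 had 28 and TGFB2 14 in the only window listed for each. TGFBR2 had 8 and 23 in the windows of its annotated starts. The word GGCGCC, which reads the same on both strands and is part of BMP response elements, occurred 2 times in the GREM1 window shown and 2 times in the BMP4 window shown, and in none of the INHBA, ID1 and ID3 windows. The second GREM1 window in the table, with 31 CG dinucleotides, and the other BMP4 windows, with 23 and 30, did not hold it. It was present in 19.2% of all windows. The word GTCT, the short SMAD-binding element, was counted on both strands and occurred between 2 and 3 times in the 5 windows shown, against 84% of all windows with at least 1. No methylation values were used here, and the counts describe the sequence alone.

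**Figure D1:**
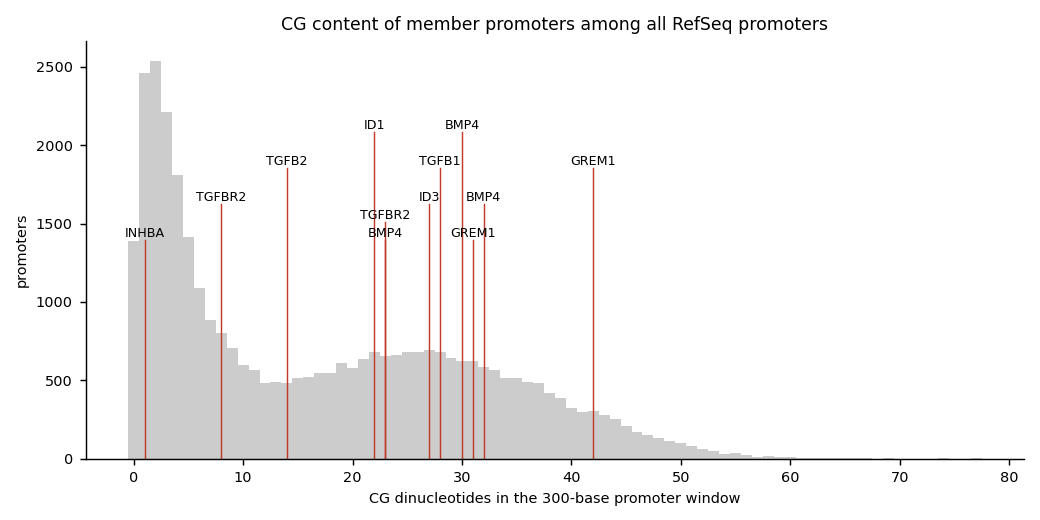
Number of promoter windows of 300 bases (y axis) by their count of CG dinucleotides (x axis), for 35116 RefSeq windows in grey, with every listed window of a member marked by a red line. The INHBA window lies at 1 and the upstream GREM1 window at 42, while BMP4, ID1, ID3 and TGFB1 lie between 22 and 32.

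Expression is given as the FPKM deposited by the authors, a fragment count scaled by transcript length and by library. The FPKM values of a library summed to between 3690000000 and 5910000000, so they are used as relative values, between genes only on this scale per length. The number of fragments counted in each library was estimated from the whole-fragment steps of low values at between 11170000 fragments in 10 µM replicate 1 and 30660000 in 5 µM replicate 3, with 14970000 to 27980000 in the control. The other 5 µM libraries stood at 26250000 and 27370000. All 10 colon epithelial markers on the list, among them EPCAM, CDH1, KRT20 and VIL1, were above 0 in all 9 libraries.

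In the control, ID1 and BMP4 stood highest per length among the 10 genes and could not be separated from each other. The order below them was TGFBR2, TGFB1, BMP2 and TGFB2, each with replicates that did not overlap those of the next. BMP7, INHBA and ID3 were below 1000 FPKM in every control library, and GREM1 was listed at 0 in all of them. At 5 µM 5-Aza, TGFB1 lay above TGFBR2 and the ranges of BMP2 and TGFB2 overlapped. At 10 µM, BMP4 lay above ID1 in every replicate, and TGFBR2 and TGFB1 overlapped.

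**Figure D2:**
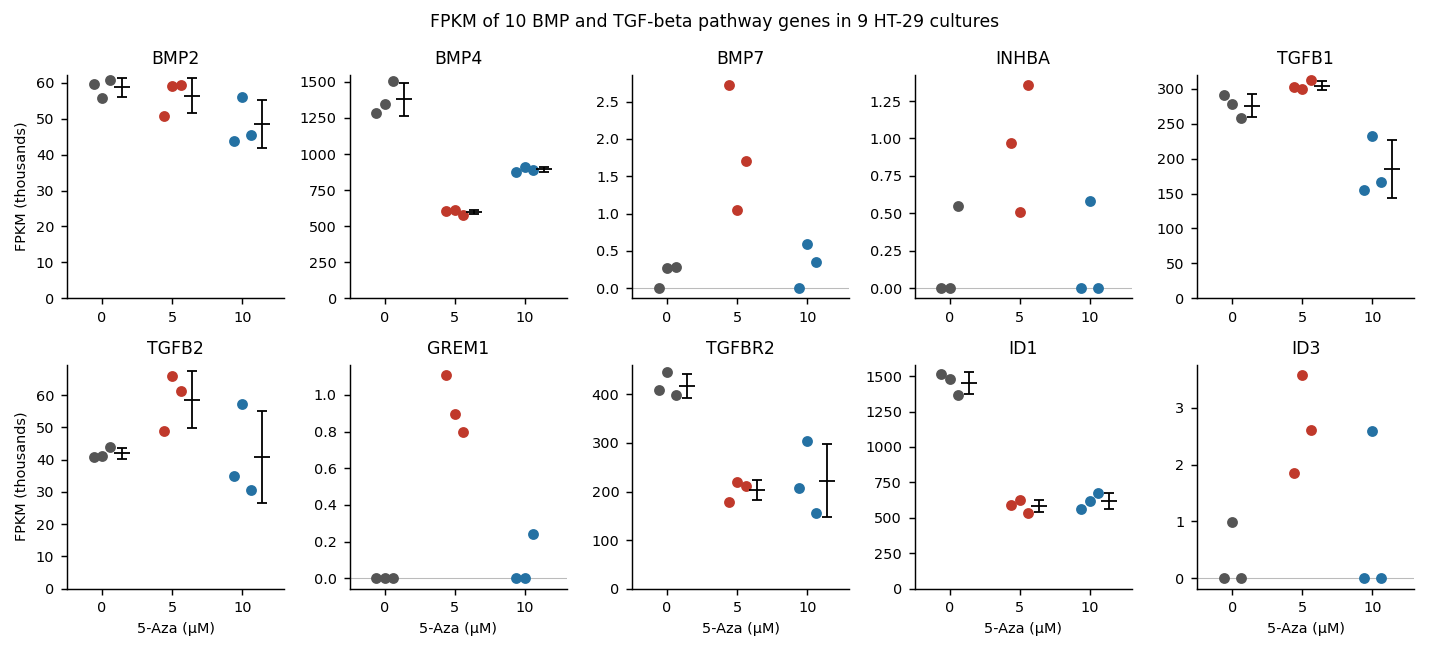
FPKM in units of 1000 (y axis, linear) of each of the 10 genes against the 5-Aza concentration in µM (x axis). Points are the 3 cultures of a group and, for genes above 0 in all 9 libraries, bars give the mean and the SD. BMP4, TGFBR2 and ID1 at 5 µM lie below every control culture, whereas GREM1 is at 0 in the control and between 797 and 1109 FPKM at 5 µM.

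The first comparison, 5 µM vs. 0 µM 5-Aza, asks what the drug did to these genes at the lower concentration. BMP4, TGFBR2 and ID1 fell to between 0.400 and 0.486 of the control, and GREM1 rose from 0. In bulk RNA, fewer cells expressing a gene and less RNA per cell cannot be told apart. Limma thus called 3 of the 10 genes down, against 2.17% of the 20051 genes tested, and 1 up, against 14.1%. Genes were called where p, adjusted after Benjamini-Hochberg over all genes, did not exceed 0.05 and the change on the log2(FPKM + 1) scale was larger than 2-fold either way. The share called up is close to that of all genes, and the share called down is above it. The 10 genes were chosen with earlier results of these data known, so the share called down is not independent support. The median log2 difference over the 15418 genes above 0 in all 6 libraries was -0.04.

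BMP4 encodes a BMP ligand and its gene spans bases 54416454 to 54425479 of chromosome 14 (GRCh37, minus strand). The FPKM was 1283370, 1349630 and 1504860 in the control, against 605783, 609204 and 580133 after 5 µM, with 876817, 912510 and 891609 after 10 µM. The 3 groups did not overlap, with the control highest and 5 µM lowest. The log2 fold change from 0 µM to 5 µM came to -1.20 (standard error 0.08, adjusted p = 0.000263 in limma). From 5 µM to 10 µM, BMP4 was higher by 0.58 on the log2 scale (standard error 0.12, adjusted p = 0.0394 by limma), which stayed within the 2-fold threshold. With 1 culture left out the difference stayed at 0.557 to 0.592. Its adjusted p in limma was 0.125 to 0.198 without any 1 of the 5 µM replicates and 0.106 without 10 µM replicate 3. Without 10 µM replicate 1 or 2 it was 0.0389 and 0.0214, and with a replicate block 0.0985. These values rest on an estimated 2451 to 7068 fragments per library.

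BMP2, the ligand closest to BMP4 in the family, lies on chromosome 20 from 6748333 to 6760893 on the plus strand. It was listed at 59702, 55700 and 60661 FPKM in the control, 50717, 59164 and 59311 at 5 µM, with 43912, 56093 and 45459 at 10 µM. The 5 µM range overlapped the control, with a log2 fold change of -0.06 (95% interval -0.30 to 0.18, adjusted p = 0.632 by limma). The FPKM of BMP4 was thus 21.5 to 24.8 times that of BMP2 in the control libraries, 9.78 to 11.9 times at 5 µM and at least 16.3 times at 10 µM, a ratio within each library that does not depend on the library term.

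ID1, on chromosome 20 from 30193086 to 30194318 on the plus strand, encodes an inhibitor of basic helix-loop-helix factors and is a direct BMP target. Its FPKM was 1513290, 1481240 and 1365440 in the control, 588505, 621914 and 535388 at 5 µM, and 561803, 616615 and 674606 at 10 µM. Both treated groups lay below every control replicate and overlapped each other. The log2 fold change was -1.32 at 5 µM vs. 0 µM (standard error 0.08, adjusted p = 0.000235 in limma). Each of the 9 libraries held at least an estimated 799.5 fragments of ID1.

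ID3, a relative of ID1 with the same kind of activity, lies on chromosome 1 from 23884417 to 23885992 on the minus strand. It was listed at 985 FPKM in control replicate 2 and at 0 in the other control replicates, at 1854, 3577 and 2600 at 5 µM, and at 2591 in 10 µM replicate 2 alone of its group. All 5 µM values lay above the control. Within a library the values came in equal steps, with 2 steps in the control, 6, 11 and 9 at 5 µM and 7 at 10 µM, so each rests on about that many fragments. The 0 of control replicate 1 allows up to 2230 FPKM (3 fragments, counting error only), more than the lowest 5 µM value, and the difference was not called (adjusted p = 0.0606 by limma). ID3 passed with a pseudocount of 1000 (adjusted p = 0.0082). It also passed without control replicate 2 (adjusted p = 0.00144), the only control library above 0. That removal leaves the control at 0 throughout, so a small p was built in and is not read as support. In the libraries that listed ID3 above 0, the FPKM of ID1 was between 174 and 1500 times that of ID3.

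**Figure D3:**
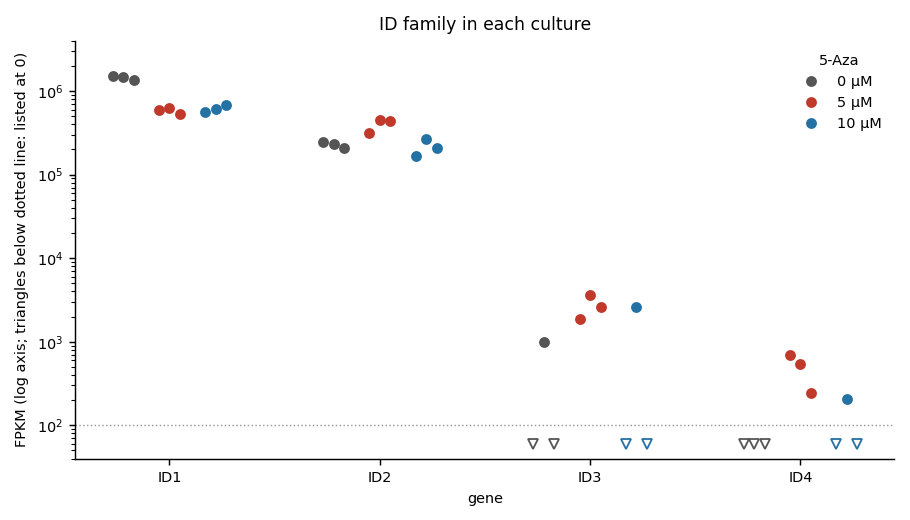
FPKM on a log axis (y axis) of the 4 ID genes (x axis) in each of the 9 cultures, colored by 5-Aza concentration. Open triangles under the dotted line stand for values listed at 0. ID1 at 5 µM and 10 µM lies below its control values, while ID2 at 5 µM lies above them.

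The other ID genes came from a list of pathway genes and not from the 10. ID2 was at 246815, 233457 and 209766 FPKM in the control and at 312085, 451714 and 439774 at 5 µM, which is the opposite direction to ID1. Its log2 difference of 0.79 (SE 0.16, adjusted p = 0.0094 by limma) stayed within the 2-fold threshold. ID4 had 0 FPKM throughout the control, against 692, 546 and 243 FPKM at 5 µM, which is about 7.35, 5.51 and 2.75 fragments. It was called up (adjusted p = 0.00145 by limma), but with the control at 0 throughout a small p was built in and is not read as support. The lowest 5 µM value is under the 3 fragments that a 0 allows, so the zeros do not separate the groups. ID2, and below INHBB, INHBE, RGMA, PMEPA1 and CDKN1A, were singled out after their values were seen.

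TGFBR2 encodes the type II TGF-beta receptor and lies on chromosome 3 from 30648093 to 30735634 on the plus strand. Its FPKM was 408631, 446376 and 399971 in the control, 179390, 218910 and 211883 at 5 µM, and 207045, 303551 and 155474 at 10 µM. Both treated groups lay below the control, and the 10 µM replicates were spread around the 5 µM range. The log2 fold change from 0 µM to 5 µM came to -1.04 (standard error 0.10, 95% interval -1.28 to -0.81, adjusted p = 0.000621 by limma). It is close to the 2-fold threshold, and the call was lost without control replicate 2 (-0.996 on the log2 scale) and without 5 µM replicate 1 (-0.96), with adjusted p-values of 0.00296 and 0.0027.

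TGFB1, the most widely expressed TGF-beta ligand gene, lies on chromosome 19 from 41807492 to 41859827 on the minus strand. It was at 291628, 277516 and 258415 FPKM in the control, 302342, 299648 and 311892 at 5 µM, with 155491, 231946 and 166423 at 10 µM. The groups did not overlap in any of the 3 comparisons, and the order was 5 µM, control, 10 µM. The log2 fold change of 0.14 at 5 µM vs. 0 µM did not pass (95% interval -0.02 to 0.30, adjusted p = 0.129 by limma).

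TGFB2, on chromosome 1 from 218518678 to 218617961 on the plus strand, encodes another TGF-beta ligand. It was at 40830, 41142 and 43796 FPKM in the control, 48811, 65819 and 61092 at 5 µM, and 34902, 57064 and 30488 at 10 µM. All 5 µM values lay above the control by a log2 difference of 0.47 (SE 0.13, adjusted p = 0.0309 by limma), within the 2-fold threshold. With 1 culture left out the adjusted p in limma reached 0.102 and was below 0.05 only without 5 µM replicate 1 (0.00831). It was 0.154 with all 9 samples in one fit and 0.0548 with a replicate block. The 10 µM values reached from below the control to the 5 µM range.

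GREM1 encodes gremlin 1, a secreted protein that binds BMP2 and BMP4 and keeps them from their receptors. It lies on chromosome 15 from 33010205 to 33037307 on the plus strand, and its CG-rich upstream promoter is printed above. GREM1 had 0 FPKM in each of the 3 control cultures, 1109, 898 and 797 at 5 µM, with 0, 0 and 241 at 10 µM. The 5 µM values were 13, 10 and 10 whole steps and the value in 10 µM replicate 3 was 2 steps. By transcript length these 5 µM values correspond to an estimated 34.07 to 44.29 fragments, so a step may be more than 1 fragment. A 0 allows up to 616, 408 and 288 FPKM in the control replicates (3 steps, counting error only), which is below every 5 µM value. Limma called GREM1 up with an adjusted p of 0.000728 (Benjamini-Hochberg). The control was at 0 throughout, so a small p was built in and is not read as support. The fitted log2 difference against a group at 0 depends on the pseudocount and is not a fold change. With a pseudocount of 1000 it was 0.95, just within the threshold, with an adjusted p of 0.00142.

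BMP7, a BMP ligand gene on chromosome 20 from 55743809 to 55841697 on the minus strand, was listed at 0, 264 and 281 FPKM in the control, 2725, 1048 and 1707 at 5 µM, and 0, 597 and 352 at 10 µM. These correspond to an estimated 0, 1.83 and 2.74 fragments in the control, 30.03, 10.97 and 20.12 at 5 µM and 0, 5.49 and 2.74 at 10 µM. All 5 µM values lay above those of both other groups. The difference from the control was not called (adjusted p = 0.11 by limma) with a standard error of 2.26 on the log2 scale. Without control replicate 1, the library at 0, the log2 fold change was 2.63 (adjusted p = 0.02), and with a pseudocount of 1000 it was 1.22 (adjusted p = 0.00669).

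INHBA encodes a subunit of activin A and lies on chromosome 7 from 41706766 to 41745432 on the minus strand. It was listed at 546 FPKM in control replicate 3, at 969, 510 and 1359 at 5 µM, at 580 in 10 µM replicate 2, and at 0 in the other libraries. The values were 1, 2, 1, 3 and 1 whole steps in that order. The 5 µM range overlapped the control, and the 0 of control replicate 1 allows up to 3498 FPKM if a step is 1 fragment. By transcript length a step would be an estimated 8.03 fragments, which would lower that limit, and the size of a step was not settled. The difference was not called (adjusted p = 0.0824 by limma). Leaving out control replicate 3, the only control library above 0, gave an adjusted p of 0.00232. That removal leaves the control at 0 throughout, so a small p was built in and is not read as support.

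The exact 2-sided permutation test of 3 against 3 cannot go below p = 0.1. It gave that value at 5 µM vs. 0 µM for the 8 members whose groups did not overlap, 5 higher and 3 lower, against 29.4% and 23.2% of all tested genes with groups not overlapping in these directions. Fibroblasts are a known source of gremlin 1, and the summed level of the fibroblast markers on the list was higher at 5 µM, as was GREM1. The sum over these 10 markers was 23400 to 32630 FPKM in the control, 87530 to 95690 at 5 µM and 46890 to 54220 at 10 µM. At 5 µM, 5 of the 10 were called up, against 14.1% of all genes. The defining marker PDGFRA was listed at 0 in all 9 libraries, DCN was listed at 0 in all 3 libraries at 5 µM, and COL1A1 and LUM made up most of the sum. The sum of 4 endothelial markers was 1901 to 5031 FPKM in the control and 9843 to 12400 at 5 µM. The 5 µM libraries also had estimated depths of 26250000 to 30660000 fragments, against 14970000 to 27980000 in the control. The 4 blood cell markers summed to 36280 to 48160 FPKM in the control and 36340 to 45330 at 5 µM. The part of these in the GREM1, BMP7 and ID3 values was not tested. The epithelial markers summed to 90080000 to 108300000 FPKM in the control and 37170000 to 41770000 at 5 µM. Of the 10, 3 were called down and 1 up, against 2.17% and 14.1% of all genes. KRT8 and KRT18 made up most of the sum, with means of 39380000 and 32980000 in the control and 12560000 and 10580000 at 5 µM. The EPCAM mean went from 3411000 to 2930000, that of CDH1 from 2137000 to 2052000, and that of CDX1 rose from 3996 to 17550. These changes stand beside the decreases of BMP4, TGFBR2 and ID1, and their part was likewise not tested.

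**Figure D4:**
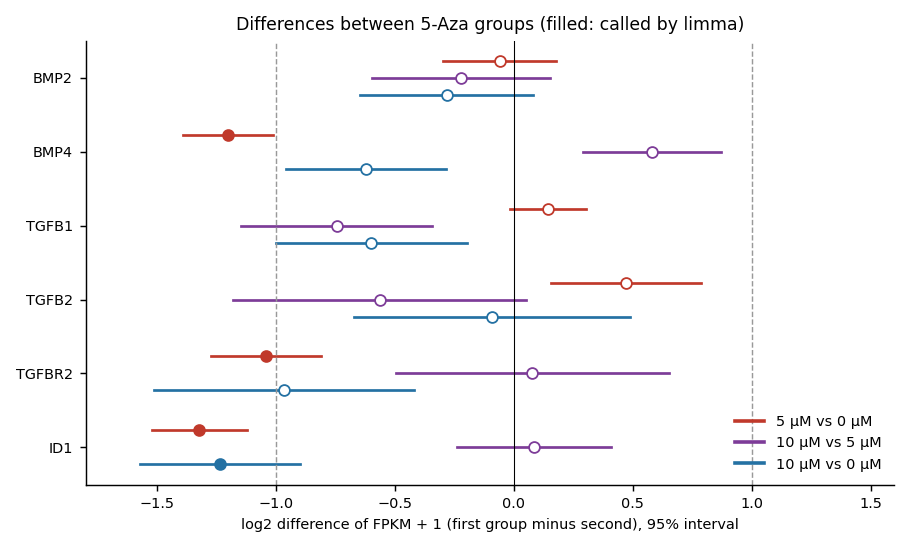
Log2 difference of FPKM + 1 (x axis) with its 95% interval for the 6 genes above 0 in all 9 libraries (y axis), in 3 comparisons by color. Filled points were called by limma and dashed lines mark the 2-fold threshold. BMP4, TGFBR2 and ID1 at 5 µM vs. 0 µM and ID1 at 10 µM vs. 0 µM are filled, at -1.20, -1.04, -1.32 and -1.24.

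The comparison of 10 µM vs. 5 µM 5-Aza addresses the effect of raising the concentration. Limma called 0 of the 10 genes, against 4.95% of 20085 tested genes, of which 0.129% were up and 4.82% down. At an unadjusted p under 0.05 there were 5 genes, BMP4, TGFB1, GREM1, INHBA and ID3, and 3 of these also passed the fold change. The share of all genes at that p was not counted. BMP4 was higher, as given above. TGFB1 was lower in every 10 µM replicate than in any at 5 µM, at -0.75 on the log2 scale (standard error 0.17, adjusted p = 0.0506 by limma). GREM1 and BMP7 at 10 µM also lay below every 5 µM value, with adjusted p-values of 0.109 and 0.242. Groups thus did not overlap for 3 members that were lower, against 25.3% of all tested genes, and for BMP4, which was higher, against 4.37%. TGFBR2 and ID1 overlapped between the groups, at 0.08 (95% interval -0.50 to 0.65) and 0.08 (95% interval -0.24 to 0.41). BMP2 and TGFB2 differed by -0.22 and -0.56, with adjusted p-values of 0.414 and 0.229. These differences are read against a shift of all genes, since the median log2 difference was -0.24 over 16203 genes above 0 in all 6 libraries. After median-of-ratios scaling, TGFB1 was at -0.54 (adjusted p = 0.0235) and BMP4 at 0.78 (adjusted p = 0.0116). Leaving out 10 µM replicate 2, the library in which ID3 and INHBA were seen in that group, turned those 2 genes into calls down. Their adjusted p-values were 0.00417 and 0.00862. Leaving out 10 µM replicate 3 did so for GREM1 (adjusted p = 0.0119). Each removal left the 10 µM group of the gene at 0 throughout, so a small p was built in and is not read as support.

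At 10 µM vs. 0 µM 5-Aza, the difference over the full concentration range, ID1 was the only member called. Its log2 difference was -1.24 (SE 0.14, adjusted p = 0.00575 by limma), 1 gene down of 10 against 3.4% of 18928 tested genes, and 0 up against 4.07%. The control samples are those of the 5 µM comparison too. BMP4 was at -0.62 (standard error 0.14, adjusted p = 0.032) and TGFBR2 at -0.97 (standard error 0.23, adjusted p = 0.0366), both within the 2-fold threshold. Without 10 µM replicate 2, TGFBR2 was called down at -1.22 (adjusted p = 0.00501). TGFB1 was at -0.60 with an adjusted p of 0.0556. BMP2 and TGFB2 differed by -0.28 and -0.09, with adjusted p-values of 0.228 and 0.808. GREM1, BMP7, INHBA and ID3 overlapped the control, with adjusted p-values between 0.558 and 0.997. The median over 15261 genes above 0 in all 6 libraries was -0.23, and median-of-ratios scaling moved ID1 to -0.995 (adjusted p = 0.00473), just short of the threshold. The same scaling left BMP4 at -0.38 with an adjusted p of 0.0846.

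The other genes of the pathway were taken from a list of 92, of which 85 were tested at 5 µM vs. 0 µM. Of these, 18 were called up (21.2%, against 14.1% of all genes) and 0 down (against 2.17%). A further 12 were lower at an adjusted p of at most 0.05 but within the 2-fold threshold. The share of all genes lower in this way was not counted, so the 12 are not read as a decrease particular to the pathway. Over the 62 listed genes above 0 in all 6 libraries the median log2 difference was 0.06, against -0.04 over all genes. The list was chosen with earlier results of these data known, so its shares called are not independent support. Of the 18 called up, 4 were listed at 0 throughout the control. For these 4 a small p was likewise built in and is not read as support.

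Among 21 tested ligand genes, 8 were called up, where 14.1% of all genes were. INHBB, which encodes a further activin subunit, was at 510, 338 and 478 FPKM in the control and 6148, 6470 and 5449 at 5 µM, a log2 difference of 3.79 (SE 0.38, adjusted p = 0.000787 by limma). INHBE, a subunit gene known from liver, rose from 81440 ± 11380 to 462200 ± 28390 FPKM (SD, n = 3). TGFB3 rose from 5219 ± 963 to 22580 FPKM, a log2 fold change of 2.13 against 0.14 for TGFB1 and 0.47 for TGFB2. BMP3 was listed at 0 in the control and at 689, 604 and 644 FPKM at 5 µM, or an estimated 9.57 to 11.5 fragments, and again at 0 in all 3 replicates at 10 µM.

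Of 21 extracellular regulators 4 were called up, close to the 14.1% of all genes, among them LRRC32, which encodes GARP, a surface anchor for latent TGF-beta. It rested on at most an estimated 4.57 fragments in any library. Of 17 receptor genes 3 were called up, also close to that share. HFE2, which encodes the BMP co-receptor hemojuvelin, was among them and was listed at 0 in the control and at 792, 184 and 326 FPKM at 5 µM. At 10 µM it was listed at 0, 0 and 1424 FPKM. Its fragments were not estimated, so how much expression a 0 in the control allows is not known. RGMA, a related co-receptor gene, rose from 1072, 177 and 502 FPKM to 4788, 5158 and 3174, a log2 difference of 3.22 (SE 0.72, adjusted p = 0.0147 by limma).

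Among the SMAD genes and intracellular regulators, which carry the signal from the receptors, none of 16 was called at 5 µM vs. 0 µM. Their log2 differences ran from -0.86 to 0.61. Of the 16, 8 had an unadjusted p under 0.05 in limma. The share of all genes at that p was not counted, so the 8 are not read as a result about the group. SMAD4 was at 26721, 28315 and 31806 FPKM in the control and 29400, 27744 and 28589 at 5 µM, a log2 difference of -0.02 (standard error 0.11). SMAD7, an inhibitory SMAD and pathway target, was lower, at -0.46 (standard error 0.08, adjusted p = 0.00514 by limma), and SMAD1, SMAD3 and SMAD6 were lower, at -0.78, -0.32 and -0.37 with adjusted p-values of 0.0109, 0.0102 and 0.0315. SMAD2, SMAD5 and SMAD9 were at -0.43, -0.17 and -0.39, with adjusted p-values of 0.0509, 0.272 and 0.241. PMEPA1, a feedback inhibitor of TGF-beta signaling, was at the lower end of the group.

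Among 10 further target genes, 3 were called up at 5 µM, against 14.1% of all genes. CDKN1A, which encodes the cell cycle inhibitor p21, rose from 163200 ± 7747 to 499700 FPKM, a log2 fold change of 1.61.

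**Figure D5:**
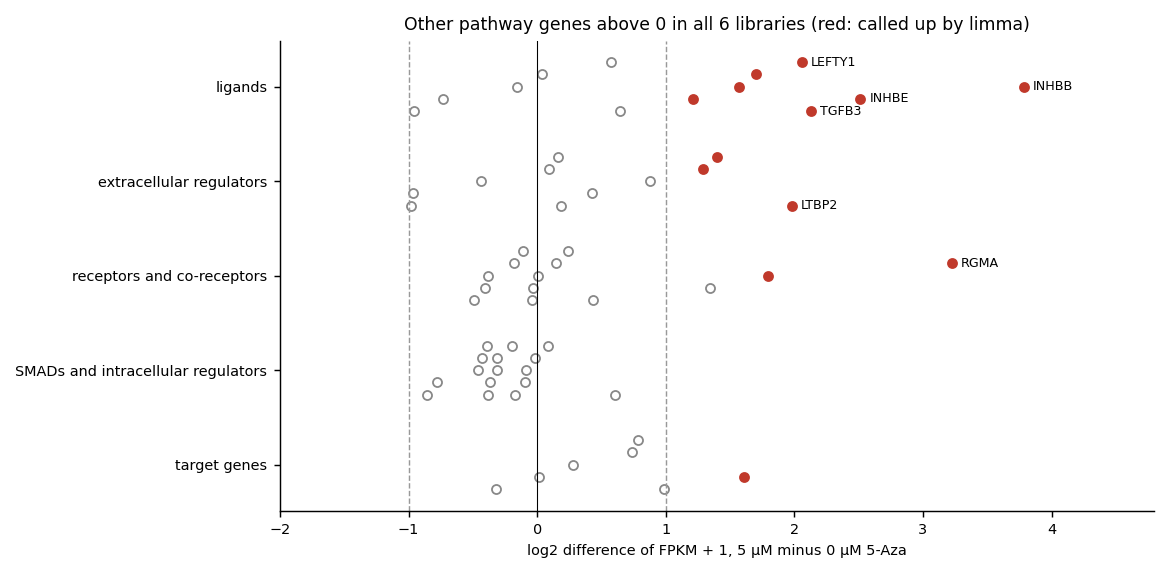
Log2 difference of FPKM + 1 at 5 µM minus 0 µM 5-Aza (x axis) for listed pathway genes above 0 in all 6 libraries, by role (y axis, with points set apart vertically for legibility). Red points were called up by limma, open points were not called, and dashed lines mark the 2-fold threshold. The SMAD group lies between -0.86 and 0.61, while RGMA lies at 3.22 and INHBB at 3.79.

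At 10 µM vs. 5 µM, 5 of 85 listed genes were called down (5.88%, near the 4.82% of all genes) and 0 up. They included BMP3, INHBB, INHBE and CDKN1A. BMP3 was at 0 throughout at 10 µM, so its small p was built in. The comparison shares its 5 µM libraries with that of 5 µM vs. 0 µM. The number of listed genes called ranged from 0 without 5 µM replicate 3 to 11 without 10 µM replicate 2. The share of all genes called in these fits was not counted. At 10 µM vs. 0 µM, 6 of 80 were called up (7.5%, against 4.07% of all genes) and 1 down (1.25%, against 3.4%). LTBP1, which encodes a latent TGF-beta binding protein, was the gene called down, with a log2 difference of -1.88 (SE 0.35, adjusted p = 0.0193 by limma). Of the 2 ligand genes called up, TGFB3 had the larger log2 difference, 1.32. CHRDL2, a BMP antagonist gene called up among the regulators, rested on an estimated 1.13 to 2.26 fragments at 10 µM. It was at 0 throughout the control, so a small p was built in here too. None of the 16 SMAD genes and regulators was called in either comparison, with 3 and 9 of them at an unadjusted p under 0.05. The share of all genes at that p was not counted here either.

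The patterns over the 9 libraries were compared among the 6 members and 61 listed genes above 0 in all of them, as a description, since the libraries share their groups and library terms. The gene most like BMP4 was LTBP3 (Pearson r = 0.959 over 9 libraries) and the gene most like ID1 was PMEPA1 (r = 0.962). TGFBR2 was most like SMAD7 (r = 0.962), BMP2 most like MSX2 (r = 0.934), TGFB1 most like TGIF1 (r = 0.907) and TGFB2 most like TGFBR1, the type I receptor gene (r = 0.899). None of the 6 members had another member as its closest gene. Most of the 66 candidates for each were listed genes, so this says little about likeness among the members.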

How the data were processed

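RNA-Seq of 9 HT-29 cultures was analysed from 1 table per culture. Per the sources, the authors aligned reads to hg19 with TopHat and estimated expression with Cufflinks, and the deposited values are FPKM for 24934 entries. Entries of a repeated symbol were summed, giving 23284 symbols. Microarray and raw count data were not used here.

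FPKM values were transformed as log2(FPKM + 1), and genes with a largest value of at least 10 in the samples compared were tested with limma 3.58.1 in R 4.3.3 (trended variance, 3 against 3 cultures, Benjamini-Hochberg adjustment over all genes tested). The scripts were tested on simulated data. For genes with values of 0 the fitted difference depends on the pseudocount. Depth was estimated from low values at 12 microRNA genes of 110 nt, where 46 of 46 values were whole multiples within 0.01, and fragments of other genes from transcript length, which for 465 of 702 genes agreed within 15%. The limit for a value of 0 is 3 fragments and covers counting error only.

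The 10 genes were given by name. The text further names SMAD1 to SMAD7 and SMAD9, the called pathway gene with the largest rise and fall per role and comparison among those whose groups did not overlap, and the gene with the most similar pattern. The values of 1 gene of the pathway list are not reported here. The members and lists were chosen with earlier results of these data known. Pseudocount, filter, scaling, samples in the fit, a replicate block, the fold threshold, handling of repeated symbols and leaving out each culture were varied. Promoter windows came from RefSeq (GRCh38.p14) and gene positions from GENCODE on GRCh37.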

Additional observations from a re-analysis of the deposited data

How the results depend on the processing

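At 5 µM vs. 0 µM the number of members called was 4 and ranged from 3 to 5 when 1 culture was left out, and the number of pathway genes called was 18 and ranged from 15 to 22. Without the fold threshold 37 pathway genes passed (25 higher, 12 lower). The share of all genes that passed was not counted for this or any other altered setting in any comparison. The counts in this section are thus not read as particular to the members or the pathway. At 10 µM vs. 5 µM, 1 member passed without the fold threshold and 0 to 2 when 1 culture was left out, while pathway genes called ranged from 0 to 11 around 5. At 10 µM vs. 0 µM, 0 members were called after median-of-ratios scaling, 3 without the fold threshold and 1 to 2 with 1 culture left out. Of the pathway genes, 17 passed without the fold threshold, against 7, and 3 to 12 with 1 culture left out. Leaving out 10 µM replicate 1 gave the lower of these counts and leaving out 10 µM replicate 2 the higher. The cause of these changes was not tested.

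Among the members' log2 differences, TGFB2 at 10 µM vs. 0 µM turned from -0.09 to 0.15 under median-of-ratios scaling. With 1 culture left out, the direction turned for BMP2 at 5 µM vs. 0 µM (-0.10 to 0.014), for TGFBR2 at 10 µM vs. 5 µM (-0.18 to 0.31), and at 10 µM vs. 0 µM for TGFB2 (-0.36 to 0.091), BMP7 (-2.20 to 3.45), INHBA (-3.03 to 3.06) and ID3 (-3.31 to 3.78). None of these differences was called. Of the alternatives for the members' values, 362 kept direction and call, 14 turned, 9 gained a call and 4 lost it. The filter, the samples in the fit, the replicate block and the handling of repeated symbols left each log2 difference unchanged. They could thus not turn a direction, and the 362 also include genes that were not called in either fit, so these counts do not measure robustness.

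The replicate numbers did not pair the cultures, since deviations of same-numbered cultures correlated at -0.074 to 0.086 and those of differently numbered cultures at -0.156 to 0.1. With the replicate block, 4, 0 and 1 members and 17, 3 and 5 pathway genes were called in the order 5 µM vs. 0 µM, 10 µM vs. 5 µM and 10 µM vs. 0 µM. The low members rest on few fragments, and values of 0 in the shallower libraries limit what can be said of them.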
